A study of Homo sapiens with 12 samples.

Results

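The resting state of U-87MG cells, a cell line derived from a human glioblastoma, was described from the 4 DMSO arrays of a series of 12. All cells of the series carried a stable lentiviral control shRNA (shCtrl, ULTRA-NT#4), so the line is not the unmodified parental one. They had been plated a day before treatment and were then kept for 24 h in medium with one of 3 additions. The DMSO group received the solvent only, at no more than 0.2%, and the other groups received FICZ (6-formylindolo(3,2-b)carbazole) at 100 nM or kynurenic acid (KynA) at 50 µM in that solvent. Each group held 4 samples, named biological replicates 1 to 4 in the labels, and whether these came from separate cultures is not stated there. The spread between them may therefore be partly technical. Members were all transcript clusters with exactly 1 gene symbol, which gave 13577 of 15759 clusters and 13530 genes. For the 45 genes with several such clusters, the cluster with the highest mean was kept. FICZ and KynA arrays enter only where the same genes' spread within those groups is given, and no effect of treatment was computed.

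Glioblastomas are sorted by their transcripts into proneural, classical and mesenchymal classes. The mesenchymal class is known for intermediate filament, matrix and adhesion genes such as VIM and CD44, the classical class for EGFR, and the proneural class for oligodendrocyte precursor genes. The aryl hydrocarbon receptor (AHR) is a transcription factor that waits in the cytosol with HSP90 and co-chaperones, binds tryptophan metabolites and other planar ligands, and then pairs with ARNT on DNA to switch on genes such as CYP1B1, TIPARP and its own repressor AHRR.

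Values are log2 signals of an Affymetrix whole-transcript array. A signal depends on a gene's probes as well as on its RNA, so a rank within an array is a rank of signal and not of molecules. Gene means over the 4 arrays ran from 6.13 to 13.70, with a median of 8.37, and array medians lay between 8.36 and 8.38. A gene was called bright where it lay in the brightest 10% of its array in all 4 arrays, which held for 1170 genes or 8.65% of all. It was called dim where it lay in the dimmest 25% in all 4 arrays, which held for 2158 genes or 15.9%. It was called most variable where its SD over the 4 arrays lay in the highest 5% among the 10147 genes above the 25th percentile of gene means, which held for 508 genes or 5.01% of these. The bright bound passed between MOB1A, with a lowest percentile of 90.01 over the arrays, and XPO7, with 89.99. Over genes, arrays correlated with Pearson's r between 0.968 and 0.975. The 3 pairs that included DMSO 2 had r of 0.968 to 0.969, and the other 3 pairs had r of 0.973 to 0.975. These are descriptions over 13530 genes that share each array, and DMSO 2 stood slightly apart.

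Of the 4 marker genes, VIM and AHR were bright, CD44 lay at the bound and EGFR below it. VIM, the intermediate filament protein vimentin, had 13.12, 13.20, 13.13 and 13.08 in DMSO 1 to 4, and its mean was rank 11 of all genes. CD44, a hyaluronan receptor, had 10.32, 10.23, 10.31 and 10.23, with a mean at percentile 90.6. Both genes differed little between arrays, with SDs of 0.0512 and 0.0486 (n = 4). AHR had 10.70, 10.74, 10.76 and 10.70, and its mean lay at percentile 94.7. EGFR, the epidermal growth factor receptor, had 9.45, 9.36, 9.58 and 9.53, with a mean at percentile 78.6. All 4 genes lay above the median gene in each array. The series holds no other cell line, so these values cannot tell U-87MG from other lines.

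The brightest signals came from a metallothionein, mitochondrial transcripts, glycolysis, tubulin and matrix genes. MT2A, a small metal-binding protein, was the brightest gene, with 13.74, 13.80, 13.60 and 13.68 in DMSO 1 to 4. The mitochondrially encoded respiratory chain genes COX1, ND2 and CYTB followed with means of 13.64, 13.57 and 13.42. ND6, which is encoded on the other mitochondrial strand, averaged 10.87 ± 0.312 and was higher in DMSO 1 and 2, with 11.01 and 11.24, than in DMSO 3 and 4, with 10.58 and 10.64. The glycolytic enzymes PKM, ENO1 and GAPDH averaged 13.37, 13.18 and 12.95. The tubulins TUBB and TUBB4B averaged 13.14 and 13.02. MMP2, a gelatin-cleaving matrix protease, averaged 13.01, and FN1, the matrix protein fibronectin, averaged 12.85. DCBLD2, a neuropilin-like membrane protein, had 13.03, 13.01, 13.05 and 13.04, among the narrowest spreads of this group with an SD of 0.0173. The other members of the 20 brightest genes were SNORD13, RPS7, MT1CP, YWHAZ, PLP2, RMRP, EEF2 and VIM. TUBB, TUBB4B, MT1CP and RPS7 have near-identical family members or copies elsewhere in the genome, so their signals may include RNA of those.

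Metallothioneins are switched on by metal ions through the factor MTF1, which binds metal response elements. MT1X had 10.96, 10.93, 10.89 and 11.19 and was bright. MT1E and MT1F averaged 9.83 ± 0.0251 and 9.43 ± 0.0613 (SD, n = 4) and were not. The 200 bases before the start of MT2A (chr16:56608384-56608583, plus strand) and of MT1X (chr16:56682270-56682469, plus strand) are shown because the brightest gene of the line has a dense run of one motif there. Both come from RefSeq on GRCh38.p14 and are written 5′ to 3′. Capitals mark TGCACNC or TGCGCNC, the metal response element core, on either strand.
MT2A: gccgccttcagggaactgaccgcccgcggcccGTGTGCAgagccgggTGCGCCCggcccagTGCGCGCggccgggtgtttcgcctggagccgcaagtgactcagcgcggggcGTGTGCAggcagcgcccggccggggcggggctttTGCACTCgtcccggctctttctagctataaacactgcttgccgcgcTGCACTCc
MT1X: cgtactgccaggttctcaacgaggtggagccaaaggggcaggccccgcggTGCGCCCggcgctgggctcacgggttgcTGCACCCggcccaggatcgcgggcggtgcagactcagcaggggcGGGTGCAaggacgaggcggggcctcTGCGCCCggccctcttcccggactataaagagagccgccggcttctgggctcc
MT2A held 6 matches and MT1X held 4 in these 200 bases. Of the 10861 genes with a promoter sequence (250 bases before the start and 50 after it), 37.9% held at least 1 match on either strand and 0.819% held 4 or more. Both also held TATAAA between 16 and 45 bases before the start, as did 2.14% of all promoters and 7 of the 80 promoters (8.75%) of the 100 brightest genes. A match is a description of letters and no evidence of binding.

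Genes of protein synthesis and the usual reference genes were bright as groups, with exceptions. Of 76 cytosolic ribosomal protein genes, 42 had a cluster of their own. Of these, 33 were bright and their median was 11.47, against 8.37 over all genes. RPL31, also a ribosomal protein, had 7.58, 7.28, 7.47 and 7.38 and was dim. PPIA, cyclophilin A, an abundant protein of most cells, averaged only 8.02 ± 0.257 (SD, n = 4). Of 18 measured housekeeping genes, 13 were bright, among them YWHAZ at 12.98, LDHA at 12.84 and ACTG1 at 12.83.

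Mesenchymal glioblastoma genes formed the lineage list with the highest median. Of 30 genes, 27 had a cluster of their own. Of these, 19 (70.4%) were bright, against 8.65% over all genes, and 0 were dim. The median of their means was 10.88, at percentile 95.6. The lists were chosen with earlier results of these data known, and no other line was measured. The rank of this list therefore does not assign the cells to a class. The matrix and adhesion members FN1, ITGA3 (integrin alpha 3) and TGFBI averaged 12.85, 12.73 and 12.15. ANXA1, a membrane-binding annexin, averaged 12.66, and TIMP1, an inhibitor of matrix proteases, 12.44 ± 0.202 (SD, n = 4). FOSL1, an AP-1 factor, averaged 12.16, whereas CEBPB, another factor known to drive the class, averaged 8.93 ± 0.0855. CHI3L1, a secreted glycoprotein, had 10.82, 10.84, 10.88 and 10.62. LGALS1, galectin 1, was the one member among the most variable genes, with 9.90, 9.64, 8.98 and 9.53. The lowest member was RELB, an NF-kB subunit, at 7.51 ± 0.265. ANXA2 and RUNX1 were not analysed here.

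The lists of the other 2 glioblastoma classes had medians under that of all genes. Of 14 measured proneural and oligodendrocyte precursor genes, 2 (14.3%) were bright and 4 (28.6%) dim, against 8.65% and 15.9% over all genes. Their median was 7.78. The bright members were STMN1, a tubulin-binding protein of dividing cells, at 10.94, and TCF12 at 10.48. The 4 dim members were the precursor factors OLIG1 at 7.58 and SOX10 at 7.04 and the receptors PDGFRA and ERBB3. Of 15 measured classical genes, 2 (13.3%) were bright, NOTCH2 at 11.31 and AKT2 at 10.43, 2 (13.3%) were dim, and the median was 8.11. These shares were near those over all genes (8.65% and 15.9%). NES, the filament protein nestin, had 8.25, 8.02, 8.32 and 8.16, just under the median gene.

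Markers of differentiated brain cells spanned low and high signals. Of the measured markers, 6 of 14 for astrocytes, 5 of 13 for neurons and 3 of 7 for oligodendrocytes lay above the median gene. Of 14 measured astrocyte markers, CLU, the secreted chaperone clusterin, was bright, with 12.38, 12.36, 12.23 and 12.39. GFAP, the filament of mature astrocytes, had 7.74, 8.40, 8.07 and 7.92, with a mean at percentile 38.4. The astrocyte water channel AQP4 averaged 7.55 ± 0.169 and was dim, as were NDRG2, AGT and ATP1B2. GJA1, the gap junction protein connexin 43, averaged 9.93 ± 0.111. Of 13 measured neuron markers, 2 were dim and 1, UCHL1, a neuronal ubiquitin hydrolase, was bright, with 11.38, 11.25, 11.26 and 11.43. Of 7 measured oligodendrocyte markers 0 were bright, against 8.65% over all genes, and 1 was bright without DMSO 3. The myelin genes MBP and MAG averaged 7.35 and 7.12 and were dim.

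Markers of cells that a pure culture should lack mostly lay under the median gene. Above it were 2 of 7 myeloid, 0 of 5 lymphoid, 1 of 8 endothelial and 3 of 7 epithelial markers. The epithelial list had a median percentile of 40.9, close to 41.3 for astrocyte and 39.2 for neuron markers. In such bulk samples, fewer cells of a type and less RNA per cell cannot be told apart. Of 7 measured myeloid markers 0 were bright, and the highest, CSF1R, averaged 8.42 ± 0.193. Of 5 measured lymphoid markers 0 were bright and 4 dim, with CD3E at 7.44 and CD8A at 7.26. Of 8 measured endothelial markers, ENG, the TGF-beta co-receptor endoglin, was bright at 11.31 ± 0.0939, and the receptor kinase TEK averaged 7.07 ± 0.205 and was dim. Of 7 measured epithelial markers 0 were bright. Over all genes 8.65% were bright and 15.9% dim, so 0 bright members in lists this short is near that share. KRT5, a basal keratin, was the highest at 9.96 ± 0.214, and EPCAM averaged 7.48 and was dim.

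**Figure D1:**
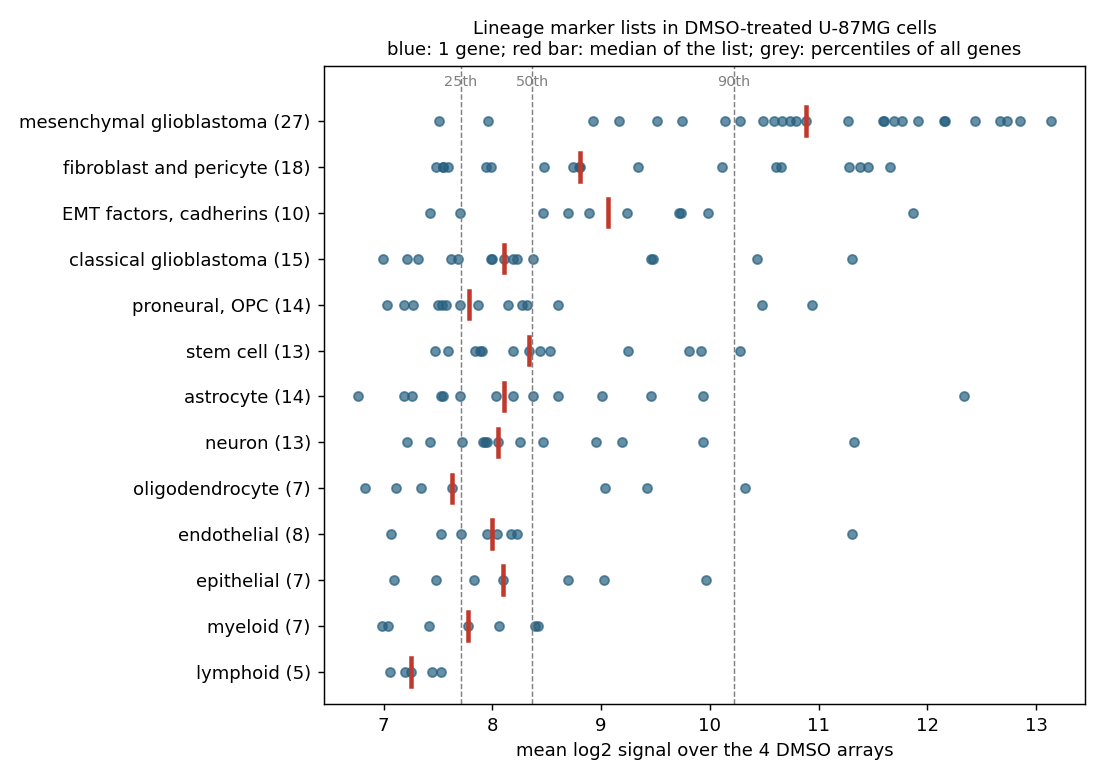
Mean log2 signal over the 4 DMSO arrays for each measured member of 13 lineage lists, with 1 point per gene, a red bar at the list median and dashed lines at the 25th, 50th and 90th percentiles of all genes. The mesenchymal list has its median at 10.88, beyond the 90th percentile, and the lymphoid list has its median at 7.26, under the 25th.

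Fibroblast and pericyte genes covered a wide range in the plot of the lineage lists, with high and low collagens. Of 18 measured members, 6 were bright, among them COL6A3 at 11.66, COL1A2 at 11.46, COL1A1 at 11.38 and SPARC at 11.28. ACTA2, smooth muscle actin, averaged 7.99 ± 0.222, and TAGLN, another contractile protein, 7.55 ± 0.282. COL3A1, another collagen, averaged 7.48 and was dim, the lowest of the list. Of 37 measured matrix and adhesion genes, 19 were bright, including LOXL2, a collagen cross-linking enzyme, at 11.73 and ITGA5, an integrin that binds fibronectin, at 11.76. The collagenase MMP1 averaged 7.33 ± 0.281 and was dim.

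Among 10 measured factors and cadherins of the epithelial-mesenchymal transition, SNAI2 was the bright one (10%, against 8.65% over all genes). SNAI2, a zinc finger repressor also called Slug, had 11.89, 11.78, 11.84 and 11.96. PRRX1, ZEB2 and ZEB1 averaged 9.98, 9.73 and 9.23, and TWIST1 averaged 7.70 ± 0.252. N-cadherin (CDH2) had 9.67, 9.63, 9.83 and 9.73, with a mean at percentile 82.9. E-cadherin (CDH1) had 8.53, 8.91, 8.59 and 8.74. E-cadherin thus lay above the median gene in all 4 arrays. Of 13 measured genes used as stem cell markers, 0 were bright, against 8.65% over all genes, and 1 was bright without DMSO 4. MYC averaged 9.92 ± 0.0930, and PROM1 (CD133) had 7.90, 7.77, 7.49 and 8.21 and was among the most variable genes.

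Receptor tyrosine kinases, which carry growth factor signals into the cell, mostly lay under the median gene, with 13 above it. Of 56 listed, 45 had a cluster of their own, and their median was 7.84, under that of all genes. Of the 45, 3 (6.67%) were bright and 10 (22.2%) dim, against 8.65% and 15.9% over all genes. AXL, the receptor of GAS6, had 12.09, 11.96, 11.95 and 11.98. MET, the receptor of hepatocyte growth factor, had 11.14, 11.19, 11.37 and 11.38. FGFR1 had 10.59, 10.63, 10.61 and 10.55. These 3 lay in the brightest 10% of every array. DDR2, a collagen receptor, averaged 10.21 ± 0.0836, just under that bound.

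**Figure D2:**
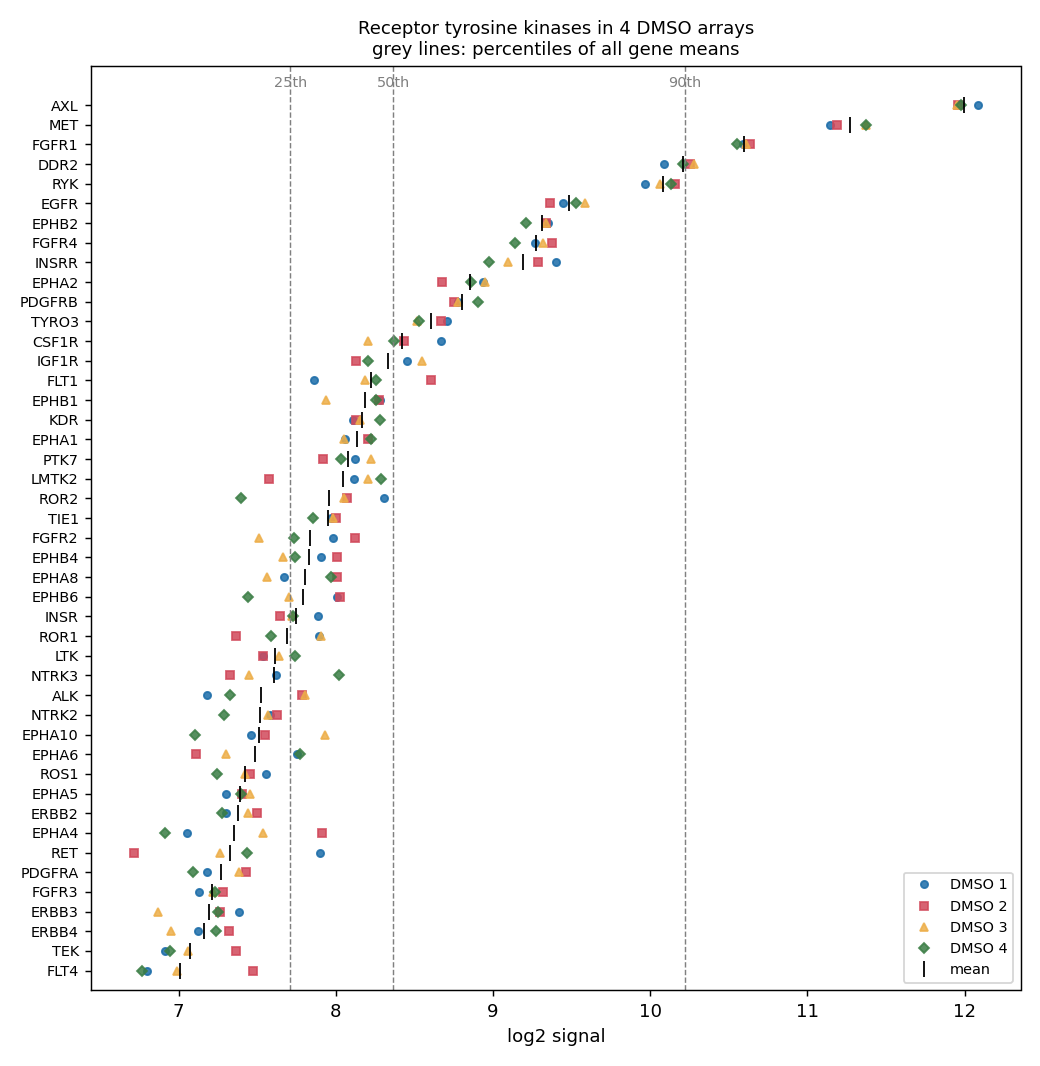
Log2 signal of 45 receptor tyrosine kinases in each of the 4 DMSO arrays, with a black tick at the mean and dashed lines at percentiles of all gene means. AXL, MET and FGFR1 lie beyond the 90th percentile in every array, and most others lie under the 50th.

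Within receptor families the signals differed widely. Of the EGFR relatives, ERBB2 had 7.30, 7.50, 7.44 and 7.28, and ERBB2, ERBB3 and ERBB4 were all dim. PDGFRB had 8.77, 8.75, 8.77 and 8.90, whereas PDGFRA had 7.18, 7.43, 7.38 and 7.09 and was dim. FGFR4 averaged 9.27 ± 0.0992, and FGFR3 averaged 7.21 ± 0.0611 and was dim. As the plot of the receptors by array shows, the widest spreads were at low signal. RET, a neurotrophic factor receptor, had 7.90, 6.71, 7.26 and 7.44, and EPHA4, an ephrin receptor, had 7.05, 7.91, 7.53 and 6.91. Both means lie in the range where spread between arrays was wide for genes in general.

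Other growth factor and cytokine receptors were higher as a group. Of 36 measured, 7 were bright: the co-receptors NRP1 at 11.32, ENG at 11.31 and SDC4 at 11.30, the interleukin receptor chains IL13RA1 at 10.77 and IL6ST at 10.59, the urokinase receptor PLAUR at 10.74 and the TGF-beta receptor TGFBR2 at 10.63. Of 32 measured ligands, 2 (6.25%) were bright, near the share over all genes (8.65%). TGFB1 had 11.23, 11.27, 11.19 and 11.39, and EREG, the EGFR ligand epiregulin, had 10.71, 10.28, 10.48 and 10.54. VEGFA averaged 10.33 ± 0.0733, with a mean at percentile 91.2. EGF itself and IL6 averaged 7.02 and 7.18 and were dim. HGF, the ligand of MET, averaged 8.59 ± 0.0475, and GAS6, the ligand of AXL, 8.00 ± 0.211. HBEGF had 8.75, 7.86, 8.25 and 8.07, the widest spread among ligands that passed the filter on low signal.

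AHR and some members of its complex were bright. Of 14 measured genes of the AHR complex and its partners, 5 (35.7%) were bright, against 8.65% over all genes, and 0 were dim. The median was 10.01, and the lowest member, RELB, averaged 7.51. The chaperone HSP90AA1 had 12.65, 12.75, 12.70 and 12.75. The co-chaperone PTGES3 (p23) averaged 10.74 ± 0.0906, and XPO1, which exports proteins from the nucleus, 10.64 ± 0.0606. With an SD of 0.0259, AHR varied less between arrays than the other 4 bright members. HSP90AB1 was not analysed here.

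The dimer partner ARNT had 9.89, 9.92, 10.06 and 9.98, with a mean at percentile 86.7. ARNT2, its relative in neural tissue, had 8.13, 8.25, 8.47 and 7.98, under the median gene in 3 of the 4 arrays. AHRR, the repressor, had 8.30, 8.09, 8.52 and 8.47 and so lay around the median. The co-activators EP300 and CREBBP averaged 10.30 ± 0.184 and 10.05 ± 0.0419.

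Of 12 measured AHR target genes, 2 (16.7%) were bright, against 8.65% over all genes, and 0 were dim. Their median was 9.27 in cells given solvent only. NQO1, a quinone reductase that NFE2L2 also controls, had 10.46, 10.51, 10.64 and 11.08 and was highest in DMSO 4. CYP1B1, a cytochrome P450 enzyme, had 9.44, 9.13, 9.58 and 9.81. TIPARP, an ADP-ribosyltransferase that dampens AHR, had 9.18, 9.20, 9.53 and 9.46. CYP1B1 and TIPARP both lay above the median gene in every array. CYP1A2, best known in liver, averaged 8.55 ± 0.0337 with little spread. ALDH3A1, an aldehyde dehydrogenase, had 7.89, 7.91, 7.72 and 7.34 and was the lowest of the targets. CYP1A1, the most used AHR target, was not analysed here.

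**Figure D3:**
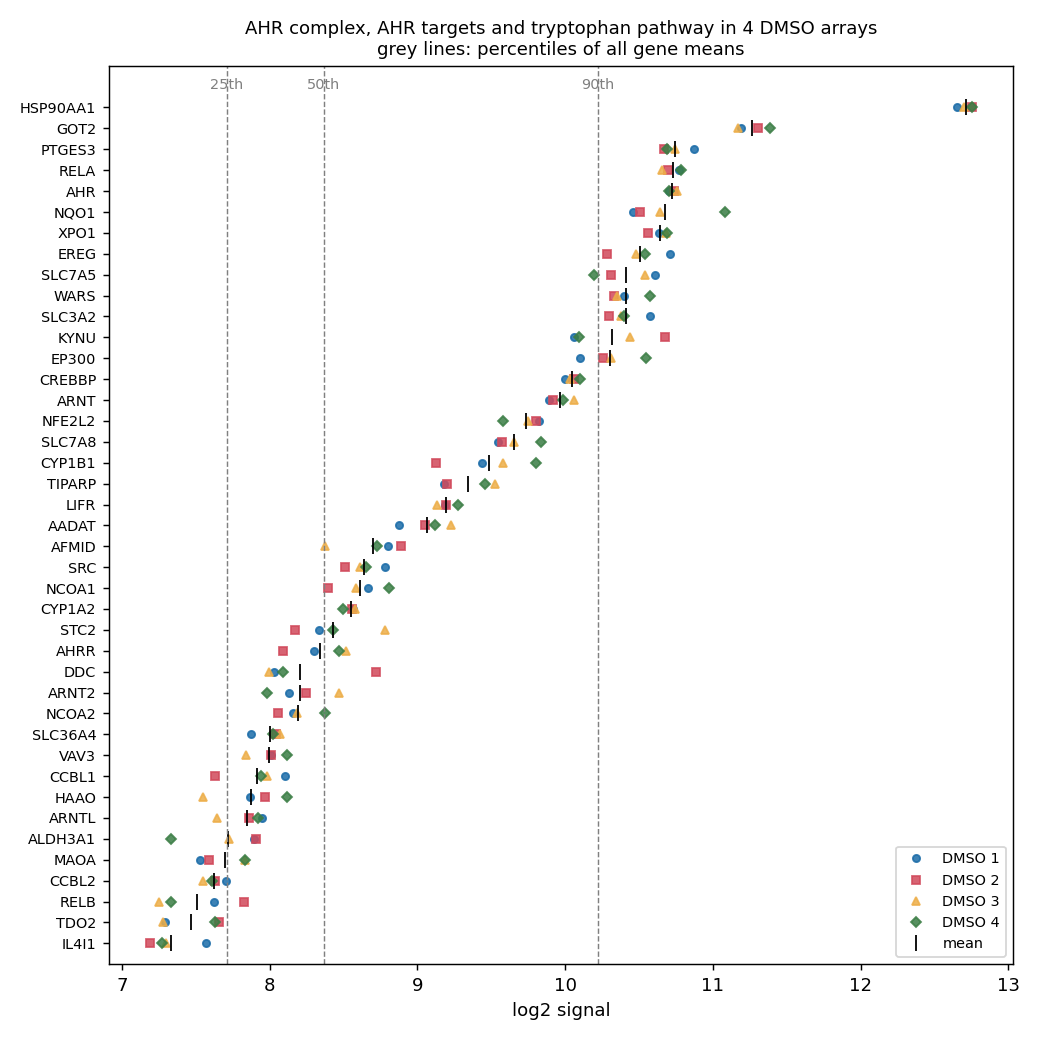
Log2 signal of the measured genes of the AHR complex, AHR targets and tryptophan pathway in each of the 4 DMSO arrays, with a black tick at the mean and dashed lines at percentiles of all gene means. HSP90AA1 is the brightest, AHR lies beyond the 90th percentile, and IL4I1 and TDO2 lie under the 25th.

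Tryptophan is taken up by amino acid transporters and turned into AHR ligands by several enzymes. Of 16 measured genes of these steps, 3 (18.8%) were bright and 3 (18.8%) dim, against 8.65% and 15.9% over all genes. The transporter subunits SLC3A2 and SLC7A5 averaged 10.41 ± 0.118 and 10.42 ± 0.194. The plot of the AHR and tryptophan genes shows KYNU, the enzyme that cleaves kynurenine, at 10.06, 10.67, 10.44 and 10.09, among the most variable genes. AADAT, one of the aminotransferases that make kynurenic acid, averaged 9.07 ± 0.146, and GOT2, another, 11.26 ± 0.101. The first enzymes of the routes were low: TDO2, which opens the tryptophan ring, averaged 7.47 ± 0.208, and IL4I1, which makes indole-3-pyruvate, 7.33 ± 0.166, and both were dim. DDC, aromatic amino acid decarboxylase, had 8.03, 8.72, 8.00 and 8.09 and was high in DMSO 2 alone. IDO1 was not analysed here.

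The cells carried the transcripts of a dividing culture. All 28 measured G2/M genes lay above the median gene, 11 of them were bright, and their median was 10.14. PLK1, a mitotic kinase, averaged 11.91 ± 0.0963, and TOP2A, a DNA topoisomerase, had 11.04, 11.32, 11.23 and 11.25. MKI67, the gene of the proliferation marker Ki-67, averaged 10.98 ± 0.121. Of 29 measured G1/S and replication genes, 26 lay above the median gene and 6 were bright, led by RRM2 at 11.46 and MCM4 at 11.38. The most variable G2/M gene, KIF23, had an SD of 0.173. Among the most variable genes were 0 of either list, against 5.01% over genes above the filter. Of 12 measured replication-dependent histone genes, 6 were bright, and the list mean was highest in DMSO 1 at 10.56 and lowest in DMSO 4 at 10.33.

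Among glioma drivers and tumour suppressors, 3 of 16 measured (18.8%) were bright, against 8.65% over all genes. CDK4, the kinase that opens G1, had 11.55, 11.45, 11.63 and 11.46, and its partner CCND1 averaged 10.85 ± 0.211. MDM2, a ubiquitin ligase, averaged 10.38 ± 0.131. CDKN2B, a CDK4 inhibitor next to CDKN2A in the genome, had 7.12, 7.37, 6.97 and 6.71 and was the dim member. CDKN2A was not analysed here.

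Stress and nutrient programmes were neither uniformly high nor low. For comparison with the counts below, 8.65% of all genes were bright and 15.9% dim. Of 27 measured hypoxia genes, 6 were bright, with ENO1 and LDHA among them, and ANGPTL4 was dim at 7.41. Of 21 measured immediate early genes 0 were bright, and the AP-1 subunits FOS and JUN averaged 6.83 ± 0.395 and 10.25 ± 0.0636. Of 18 measured interferon response genes, HLA-C was bright at 11.11, and ISG15 averaged 7.19 and was dim. Of 16 measured NF-kB genes and cytokines 0 were bright, with NFKBIA, the inhibitor of the pathway, the highest at 9.86. In the list of the unfolded protein response, CALR and HSPA5, chaperones of the endoplasmic reticulum, averaged 12.55 and 11.79, and TRIB3 averaged 7.44 and was dim. In the lipid list, the desaturase SCD had 11.93, 12.29, 11.75 and 12.07.

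Agreement between arrays rose with signal. The median SD was 0.250 in the dimmest 10% of genes and 0.0928 in the brightest 10%. Among the 10147 genes above the filter on low signal, the median SD was 0.130, equal to 1.09-fold on the linear scale. The bound for the 508 most variable genes lay between HTATIP2 at 0.2910 and CELF2 at 0.2907. An SD of 0.5 or more was reached by 44 genes (0.434%). G2/M, G1/S, ribosomal and housekeeping genes had 0 members among the most variable, against 5.01% over genes above the filter. Without DMSO 2, 1 housekeeping gene was among them. The count was also 0 for several other lists, such as fibroblast and pericyte genes, AHR targets and interferon response genes. For AHR targets, however, it was 3 with a filter at the 50th percentile and 3 without DMSO 3. It was 1 without DMSO 1 and 1 without DMSO 2.

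**Figure D4:**
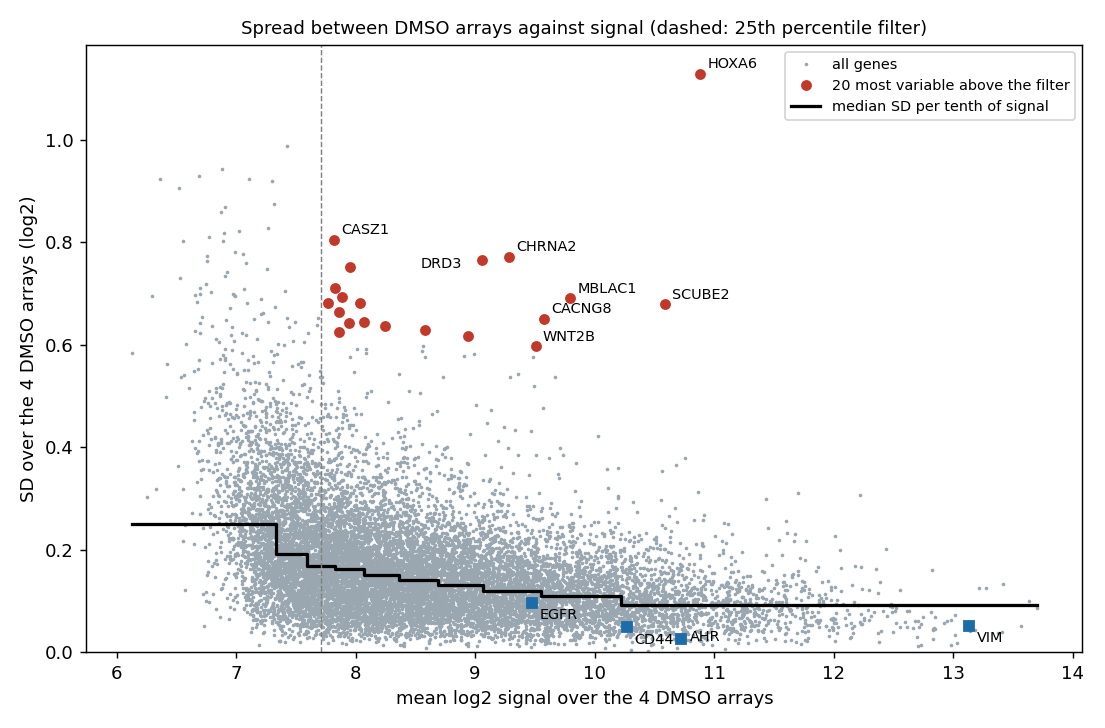
SD of log2 signal over the 4 DMSO arrays against mean log2 signal, with 1 point per gene, the median SD per 10% of genes as a black line, and the 25th percentile filter as a dashed line. HOXA6, at an SD of 1.13, stands far above genes of like signal, and VIM, CD44, EGFR and AHR lie under the line.

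In the plot of SD against signal, HOXA6 stood apart from every other gene above the filter. HOXA6, a homeobox factor that sets position along the body axis, had 9.76, 11.81, 11.89 and 10.06. DMSO 2 and 3 were high and DMSO 1 and 4 low, a range of 2.13 or 4.39-fold. Of the other measured HOXA genes, HOXA3 had 10.18, 10.55, 10.24 and 9.82 and was also among the most variable, with an SD of 0.301. HOXA7 had 7.99, 8.21, 7.72 and 7.71, and HOXA4 averaged 7.19 and was dim. The SD of HOXA6 was also wide within the other groups, at 0.953 over the FICZ arrays and 1.02 over the KynA arrays.

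The other 19 of the 20 most variable genes had ranges of 1.25 to 1.87. With DMSO 1, 2, 3 or 4 left out in turn, 9, 11, 12 and 15 of these 20 genes remained among the 20 most variable. CASZ1, a zinc finger factor, had 7.02, 8.89, 7.94 and 7.44. CHRNA2, a nicotinic receptor subunit, had 10.32, 8.49, 9.34 and 8.99, and DRD3, a dopamine receptor, had 9.68, 8.48, 9.76 and 8.32. DRD3 was thus split between high DMSO 1 and 3 and low DMSO 2 and 4. SCUBE2, a secreted protein of hedgehog signalling, had 11.02, 9.62, 11.09 and 10.62, with its low array in DMSO 2. WNT2B, a Wnt ligand, had 10.10, 8.73, 9.82 and 9.38, and CACNG8, an auxiliary subunit of AMPA receptors, had 10.15, 8.64, 9.80 and 9.72. DMSO 2 was the low array in WNT2B and CACNG8 too. MBLAC1, a metallo-beta-lactamase fold protein, went the other way, with 8.90, 10.51, 9.66 and 10.11. The remaining members were IL23R, MPP7, RHBDL1, LGALS9B, OAZ3, ZNF826P, FRMD1, ZNF596, RGS6, MED12L, RHPN1 and TMEM145.

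Of the 100 most variable genes, 47 were highest in DMSO 2 and 41 lowest in DMSO 4, where the shares over all 10147 genes were 22.4% and 21.7%. Over all 10147 genes, DMSO 2 was most often the lowest array (30.2%) and DMSO 4 most often the highest (28.4%). Among the 20 most variable genes, 9 were highest in DMSO 2, 8 were lowest in DMSO 1 and 5 were lowest in DMSO 4. The 100 genes were not bright ones: 0 lay in the brightest 10% in all 4 arrays and 62 lay under the median signal. Their promoters held a median of 13.5 CG dinucleotides (70 genes matched), against 26 for the genes above the filter, a lower count than in any group of genes by signal, where the medians ran from 18 to 27. Of the 100, 87 were protein coding and 7 long non-coding, and of the 100 brightest genes 94 were protein coding.

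Wide spread recurred within the other groups. Of the 20 most variable DMSO genes, 15 were also in the highest 5% of SDs over the FICZ arrays (5.01% of genes) and 17 over the KynA arrays (5.01%), and 14 were in both. Of all 10147 genes above the filter, 166 were in both. Of all 508 most variable DMSO genes, 153 were in the FICZ set and 168 in the KynA set, and each set held 508 genes. These spreads were taken over arrays that were not used to choose the genes, although all arrays share the probes of each gene. A pair of sets chosen after their values were seen ran against each other: the 9 genes highest in DMSO 2 (CASZ1, IL23R, MBLAC1, LGALS9B, OAZ3, FRMD1, RGS6, MED12L and TMEM145) and the 5 lowest there (CHRNA2, SCUBE2, ZNF826P, CACNG8 and WNT2B). Their mean deviations from the own group's mean had opposite signs in 7 of the 8 FICZ and KynA arrays, KynA 3 being the exception there. In DMSO 4 the signs were also the same, at -0.158 and -0.152. Deviations within a group are tied by its mean, so its arrays are not separate instances. No test was made of the opposite signs, and what moves these genes between replicates was not tested.

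**Figure D5:**
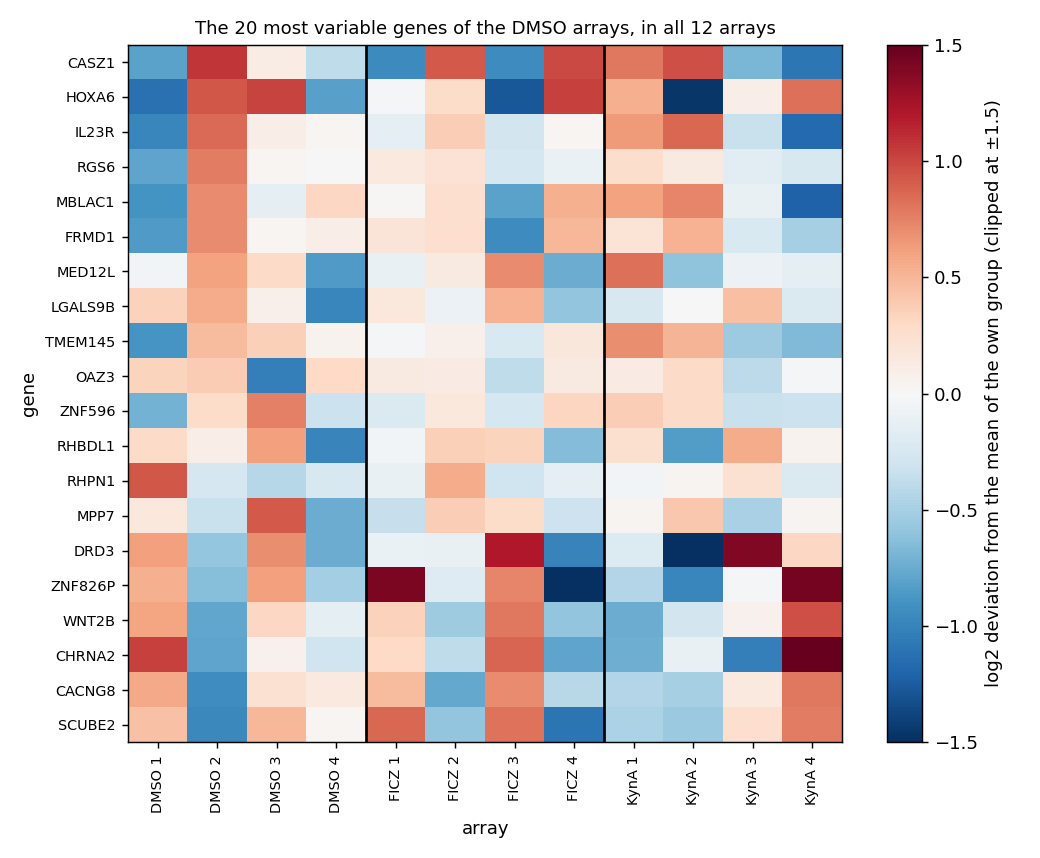
Log2 deviation from the mean of the own group for the 20 most variable DMSO genes (rows) in the 4 DMSO, 4 FICZ and 4 KynA arrays (columns), clipped at 1.5 in either direction. CASZ1, MBLAC1 and FRMD1 are red where SCUBE2, CACNG8 and WNT2B are blue in DMSO 2, and arrays with such opposite colours recur in the FICZ and KynA groups.

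The plot of deviations also shows SCUBE2 and CACNG8 low in FICZ 2 and 4 and in KynA 1 and 2, as in DMSO 2. BNIP3, a mitophagy receptor induced by low oxygen, had 10.92, 11.19, 10.61 and 10.31, and CA9, carbonic anhydrase 9, had 9.43, 9.47, 9.27 and 8.59. DDIT4, an inhibitor of mTORC1, had 8.86, 9.41, 8.76 and 8.81. With ALDOC, these were 4 of the 26 hypoxia genes above the filter (5.01% over all genes). The count was 2 without DMSO 2, 2 without DMSO 4 and 2 with no filter. The list mean was highest in DMSO 2 at 9.76 and lowest in DMSO 4 at 9.57.

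In the lipid list, 2 of 15 genes above the filter were most variable (5.01% over all genes). The count was 1 without DMSO 1 or without DMSO 4. HMGCS1, which makes HMG-CoA for cholesterol, had 7.92, 8.14, 8.55 and 8.86, and ACAT2 had 7.61, 8.06, 7.74 and 8.30. The list mean was higher in DMSO 4 and 2, at 9.28 and 9.22, than in DMSO 1 and 3, at 9.06 and 9.04. INSIG1, a sterol sensor, had 10.76, 11.13, 10.69 and 11.01, with DMSO 2 and 4 high as in ACAT2 and SCD. HMGCS1 did not follow that order, being higher in DMSO 3 than in DMSO 2.

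Some markers of foreign cell types were also among the most variable genes. PTPRC (CD45) had 8.30, 8.47, 7.75 and 7.74, and AIF1 had 8.57, 8.70, 8.46 and 7.85. They were the 2 most variable among 4 myeloid markers above the filter, where the share over all genes was 5.01%. Without DMSO 4, 1 myeloid marker was among the most variable. TYROBP and FCER1G, on the same list, averaged 6.99 and 7.04 and were its 2 dim members, while 2 of the 7 measured myeloid markers lay above the median gene. KRT18, a simple epithelial keratin, had 8.12, 8.65, 7.85 and 7.77. The myeloid list mean was 7.79, 7.90, 7.62 and 7.60 in DMSO 1 to 4, and the epithelial list mean 8.34, 8.53, 8.18 and 8.19, so both were highest in DMSO 2. Their part in the high values of DMSO 2 among the most variable genes was not tested. Over the 34 lists, the range of list means between arrays ran from 0.0220 to 0.406 with a median of 0.114, and the widest was the lymphoid list, in which DMSO 3 was low at 7.01.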

How the data were processed

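Total RNA of U-87MG cells was hybridised to Affymetrix whole-transcript arrays, 1 array per sample. The authors deposited log2 signals, which came from RMA as run in oligo according to the submitters' processing notes. Versions, array annotation and any rule that left out dim clusters were not given in the sources used here. RMA normalizes all 12 arrays together, so the DMSO values are not independent of the other arrays. An array has no sequencing depth, so precision is limited by the number of arrays.

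From these values, each gene's mean, SD, range and percentile within each DMSO array were computed in Python 3.11.15 with pandas 2.3.3 and numpy 2.4.6. Percentiles of signal set the bright bound (10%) and the dim bound (25%). Symbols came from the platform annotation, which can be old, and 744 clusters with several symbols and 1438 with none were left out. Of the genes, 13486 matched a RefSeq gene and 10861 a promoter. No test between groups was run, since a single group is described; Dixon's criterion for an array apart was applied to the named genes.

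Named genes are the 20 brightest, the 20 with the largest SD above the filter, VIM, CD44, EGFR and AHR, and members of 34 lists. Genes at a bound, and the other HOXA genes, were named after their values were seen. Members and lists were chosen with earlier results of these data known. Alternatives were other filters, array scalings (centring, quantile, and cyclic loess in limma 3.58.1 under R 4.3.3), other rules for several clusters, and each array left out.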

Additional observations from a re-analysis of the deposited data

Results flagged for a closer look

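In 14 of the 194 named genes, 1 DMSO array stood apart from the other 3 by more than Dixon's 95% critical value for 4 samples. Chance alone flags about 1 in 20 groups, and the cause was not tested in any of them. Both wide cases are among the 20 most variable genes. OAZ3, an antizyme that regulates polyamine synthesis, had 6.75 in DMSO 3, against 8.08 to 8.16 in the others. RHPN1 had 8.79 in DMSO 1, against 7.43 to 7.62 in the others.

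DMSO 2 was the array apart for DDC, at 8.72 against 8.00 to 8.09, for DDIT4, at 9.41 against 8.76 to 8.86, and for ENG, at 11.17 against 11.35 to 11.36. DMSO 1 was apart for AQP4, at 7.30 against 7.60 to 7.66, for HGF, at 8.52 against 8.61 to 8.62, for HLA-C, at 11.31 against 11.02 to 11.06, and for ZEB2, at 9.59 against 9.78 to 9.79. DMSO 3 was apart for JUN, at 10.35 against 10.21 to 10.23, for NRP1, at 11.51 against 11.24 to 11.28, and for TYROBP, at 7.11 against 6.93 to 6.96. DMSO 4 was apart for EGF, at 6.40 against 7.21 to 7.23, and for PDGFRB, at 8.90 against 8.75 to 8.77.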

How the results depend on the processing

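Array signals carry no depth, and signal over background was not given, so low genes are limited mainly by the spread between 4 arrays. The number of genes in the brightest 10% in all 4 arrays was 1170 and lay between 1196 and 1199 with 1 array left out. The number with an SD of at least 0.5 was 44, but 22 with a filter at the 50th percentile and 183 with no filter, since these settings admit fewer and more low genes. It lay between 47 and 62 with 1 array left out. Of the 20 most variable genes, 9 remained with the stricter filter, 2 with no filter, and 9 to 15 with 1 array left out. With 1 array left out, mean signals ran from 13.11 to 13.15 for VIM, 10.26 to 10.29 for CD44, 9.45 to 9.52 for EGFR and 10.71 to 10.73 for AHR. Among list counts, 371 values for the brightest 10% stayed within 1.5 times and 3 did not, and for the most variable genes 301 stayed and 73 did not. No paired analysis was possible because a single group is described and its values come from no test. Deviations of arrays with the same replicate number in different groups correlated over genes at -0.139 to 0.220, over 0.1 in 6 of 12 pairs. Pairs with different numbers ran from -0.233 to 0.270, over 0.1 in 5 of 36. The medians were 0.0997 for the same number and -0.0355 for different numbers. The highest value, 0.270, joined FICZ 3 and KynA 4. Whether arrays of 1 number share a batch was not tested.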

Other observations

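Metallothionein and heat shock genes were high as a group. Of 10 measured, 6 were bright and 0 dim. HSPB1, a small chaperone, averaged 11.89 ± 0.106, and HSPD1, the mitochondrial chaperonin, 11.56 ± 0.0821 (SD, n = 4). HMOX1, the haem-degrading enzyme, averaged 9.59 ± 0.168 and was not bright.

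Transcript classes differed in median signal. The 12838 protein-coding genes had a median of 8.40, the 41 small nucleolar RNAs 9.36 and the 344 long non-coding RNAs 7.71. The median SD was 0.142 for protein-coding genes and 0.191 for long non-coding RNAs, which lie in the low range of signal where the SD of all genes was also wide. CG dinucleotides per promoter had a median of 18 in the dimmest 10% of genes and 27 in the brightest 10%.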
